A study of Homo sapiens with 4 samples.

Results

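The genes of cholesterol and fatty acid synthesis were followed across 4 Affymetrix whole-transcript arrays of human prostate cancer cells. The list named 34 genes by symbol: 17 enzymes of the sterol branch, 10 genes of the fatty acid branch and 7 regulators. Of these, 32 could be read from a probe set that names them alone, out of 18417 genes measured in this way. HSD17B7 was read only by a probe set shared with HSD17B7P2, so it was given no value, and FDFT1 was not analysed here. The measured members were thus 15 sterol enzymes (7 of the mevalonate arm and 8 from squalene to cholesterol), 10 fatty acid genes and 7 regulators.

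One array each came from LTAD cells transfected with siPSF (an siRNA against PSF, the product of SFPQ), LTAD cells transfected with a control siRNA (siControl), untransfected LTAD cells and LNCaP cells. LNCaP is an androgen-responsive prostate cancer line, and LTAD is a daughter line of it, made by keeping LNCaP cells without androgen for a long time. All LTAD cells were kept in phenol red-free medium with 10% stripped serum, and LNCaP cells for 24 h in such medium with 2.5%. No group had a replicate, so every value is a single array reading, differences are between 2 arrays, and no test, error or p-value can be given. The number of arrays limits the precision, and the labels give no siRNA dose, time after transfection or array batch. Nothing in the labels says whether LTAD is a pool or a clone.

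Levels are log2 values after quantile normalization, which gives all 4 arrays one distribution of probe set values. It was needed because the deposited columns had medians of 6.04 for siPSF, 5.98 for siControl, 7.20 for untransfected LTAD and 6.91 for LNCaP. Differences between a transfected and an untransfected array rest on this step: on the deposited scale they shifted over all genes kept by medians of -0.90 to -0.69. The order of all 4 arrays is therefore given on the quantile scale unless the deposited scale is named. A gene was kept for comparison if 1 or more arrays read at least 7.23, the middle of all gene values. That left 10117 genes, among them all 32 members, 30 of which reached it in every array. SFPQ read 9.87 with siPSF and 11.23 with siControl (log2 difference -1.37), against 10.82 in untransfected LTAD and 10.83 in LNCaP. All 6 measured luminal prostate markers reached the filter value in siControl, untransfected LTAD and LNCaP, and 5 of 6 with siPSF, where KLK3 read 7.11. Among 5 stromal markers COL1A1 reached it in all 4 arrays and LUM in untransfected LTAD. Among 3 basal markers KRT14 reached it with siPSF, at 7.36, and none did elsewhere. None of the 3 endothelial and 3 leukocyte markers measured reached it in any array.

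Cholesterol is built from acetyl-CoA through mevalonate, farnesyl diphosphate, squalene and lanosterol, and fatty acids are built from the same acetyl-CoA by way of malonyl-CoA. Both branches are switched on by the transcription factors encoded by SREBF2, which favours sterol genes, and SREBF1, which favours fatty acid genes. Their precursors are carried by SCAP from the endoplasmic reticulum to the Golgi for cleavage when sterols are scarce, and INSIG proteins hold them back when sterols are plentiful. Prostate cancer cells are known for active lipid synthesis, which androgen stimulates in LNCaP through the same factors.

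**Figure D1:**
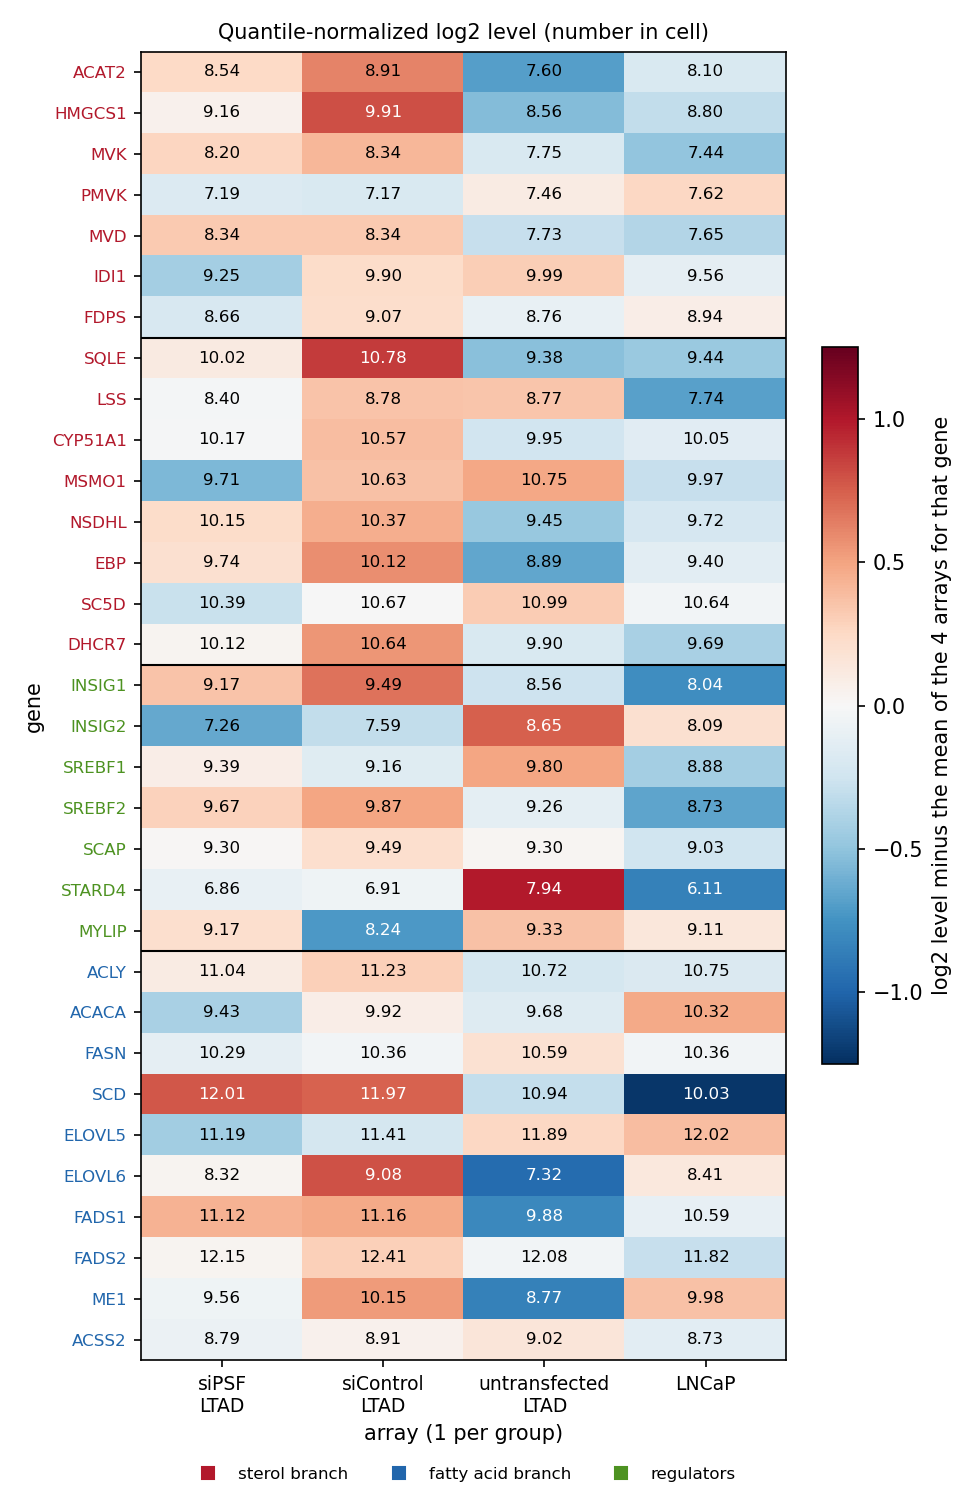
Quantile-normalized log2 level of the 32 measured genes (rows) in the 4 arrays (columns, 1 array per group), printed in each cell, with the colour showing the level minus the mean of the 4 arrays for that gene. SQLE reads 10.78 in siControl against 10.02, 9.38 and 9.44 elsewhere, and SCD is above 11.9 in both transfected arrays.

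The first comparison set siPSF against siControl LTAD, the knockdown contrast. Sterol enzymes read lower with siPSF, by a median of -0.38 on the log2 scale over 15 genes, and 14 of the 15 were below 0 (13 with centred values, where MVD at 8.34 in both arrays changes side). MSMO1, SQLE, HMGCS1 and IDI1 differed most, by 1.57- to 1.90-fold. Fatty acid genes read lower by a median of -0.21, with 9 of 10 below 0 (8 with centred values), and regulators by -0.20, with 5 of 7 below 0 (4 with deposited or centred values) and MYLIP 1.90-fold higher. Over all 10117 genes kept the median was -0.02, with 53.1% lower and 46.9% higher. On the deposited scale 55.8% of them were lower, and with centred values 44.1%. Centred values are deposited values minus each array's median of kept genes. With 1 array per group, fewer cells of a kind, less RNA per cell and variation between single arrays cannot be told apart.

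No member reached a 2-fold difference between siPSF and siControl in either direction, where 0.089% of the genes kept were higher by that much and 0.722% lower. At 1.5-fold, 5 of the 32 members were lower (HMGCS1, IDI1, SQLE, MSMO1 and ELOVL6), against 3.26% of all genes kept. MYLIP alone was 1.5-fold or more higher, against 0.771% of all genes kept.

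In the mevalonate arm, HMGCS1, the synthase that makes HMG-CoA, read 9.16 with siPSF, 9.91 with siControl, 8.56 in untransfected LTAD and 8.80 in LNCaP. It was 1.68-fold lower with siPSF than with siControl, and siControl was the highest array on the quantile scale. IDI1, the isomerase that interconverts the building blocks of farnesyl diphosphate, read 9.25, 9.90, 9.99 and 9.56 in the same order of arrays. Here siPSF was the lowest of the 4 arrays, 1.57-fold below siControl. FDPS, which makes farnesyl diphosphate, differed by -0.42 and ACAT2, the cytosolic thiolase at the start of the route, by -0.37. The kinases and the decarboxylase that act on mevalonate lay closer. MVK differed by -0.14, MVD read 8.34 in both arrays, and PMVK read 7.19 with siPSF against 7.17 with siControl, both just under the filter value.

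From squalene to cholesterol all 8 enzymes read lower with siPSF, between -0.92 and -0.22. MSMO1, the methyl sterol oxidase, read 9.71 with siPSF, 10.63 with siControl, 10.75 in untransfected LTAD and 9.97 in LNCaP. It had the lowest difference of any member, 1.90-fold, and siPSF was the lowest array. SQLE, squalene epoxidase, read 10.02, 10.78, 9.38 and 9.44 in the same order, 1.70-fold lower with siPSF than with siControl. The siPSF level of SQLE lay above both untransfected arrays on the quantile scale. On the deposited scale it lay below both, with -0.26 against untransfected LTAD and -0.15 against LNCaP. DHCR7, the reductase of a last step to cholesterol, differed by -0.52. CYP51A1, lanosterol demethylase, differed by -0.40 in the probe set used and by -0.36 in its second probe set. EBP, a sterol isomerase, differed by -0.38, LSS, lanosterol synthase, by -0.37, SC5D, a sterol desaturase, by -0.28 and NSDHL, which works with MSMO1 in demethylation, by -0.22.

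Promoter sequences were read to show letters that sterol enzymes share. The promoters counted include that of HSD17B7, which has no level here, and lack those of ACAT2, SQLE and FASN. SREBP-family factors bind sterol regulatory elements next to CCAAT boxes, which the factor NF-Y binds. Promoters of RefSeq, build GRCh38.p14, run from 250 bases before to 50 after each start site and were found for 30 of the 34 genes. The letters CCAAT or, on the other strand, ATTGG stood in 14 of 19 promoters of 14 sterol enzymes (73.7%), in 8 of 14 of 9 fatty acid genes (57.1%) and in 4 of 8 of the regulators. Of all 35116 promoters in the table, 34.6% held them. Some genes have several promoters that overlap, so the same copies can count more than once. Counted by gene, 12 of 14 sterol enzymes, 6 of 9 fatty acid genes and 4 of 7 regulators held them, against 39.7% of all 27305 genes. At least 3 copies stood in 7 of the 19 sterol promoters and in 3.26% of all promoters. GGGCGG or CCGCCC, the letters of a GC box, stood in 17 of 19 sterol, 11 of 14 fatty acid and all 8 regulator promoters, against 45.0% of all. TCACNCCAC or its other strand, a strict form of the sterol element, stood in 1.13% of all promoters and, among the members, only in that of SREBF2.

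Shown are the 250 bases before the start site, 5′ to 3′, of MSMO1 (chr4:165327419-165327668, plus strand), whose difference was lowest, NSDHL (chrX:152830813-152831062, plus strand), which with MVK holds most copies, and PMVK (chr1:154936720-154936969, minus strand), the only sterol enzyme above 0. Capitals mark CCAAT or ATTGG in these 3. SREBF2 (chr22:41832855-41833104, plus strand) is shown for its sterol element, in capitals.
MSMO1: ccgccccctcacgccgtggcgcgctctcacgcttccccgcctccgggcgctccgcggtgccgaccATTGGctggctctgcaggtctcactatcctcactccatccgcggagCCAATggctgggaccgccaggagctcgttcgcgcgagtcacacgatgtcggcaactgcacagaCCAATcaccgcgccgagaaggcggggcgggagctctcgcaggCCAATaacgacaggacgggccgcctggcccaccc
NSDHL: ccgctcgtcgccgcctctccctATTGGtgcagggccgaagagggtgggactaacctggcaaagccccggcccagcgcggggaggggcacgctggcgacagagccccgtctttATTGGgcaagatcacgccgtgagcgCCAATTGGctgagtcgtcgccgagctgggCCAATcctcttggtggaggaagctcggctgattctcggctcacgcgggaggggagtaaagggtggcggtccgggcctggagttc
PMVK: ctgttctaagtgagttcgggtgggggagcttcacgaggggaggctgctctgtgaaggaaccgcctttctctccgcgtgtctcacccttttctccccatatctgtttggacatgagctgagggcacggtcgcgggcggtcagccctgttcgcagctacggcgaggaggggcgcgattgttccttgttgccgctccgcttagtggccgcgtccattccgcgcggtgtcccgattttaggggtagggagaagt
SREBF2: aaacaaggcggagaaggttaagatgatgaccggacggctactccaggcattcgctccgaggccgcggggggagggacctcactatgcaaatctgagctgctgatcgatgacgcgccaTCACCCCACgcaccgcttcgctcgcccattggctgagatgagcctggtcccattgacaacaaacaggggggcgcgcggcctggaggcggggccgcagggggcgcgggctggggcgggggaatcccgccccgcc
MSMO1 holds 4 copies and NSDHL 5, of which 2 overlap in a run of CCAATTGG, and PMVK holds none. Whether the number of copies goes with the size of the difference was not tested. MVK also holds 5 and differed by -0.14, and CYP51A1 holds none and differed by -0.40. A match is only a description of these letters and says nothing of binding.

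In the fatty acid branch, ELOVL6, which lengthens palmitate to stearate, read 8.32 with siPSF, 9.08 with siControl, 7.32 in untransfected LTAD and 8.41 in LNCaP. It was 1.70-fold lower with siPSF than with siControl. ME1, the cytosolic malic enzyme that supplies NADPH, read 9.56, 10.15, 8.77 and 9.98 in the same order, a difference of -0.58 between siPSF and siControl. ACACA, the acetyl-CoA carboxylase that makes malonyl-CoA, read 9.43, 9.92, 9.68 and 10.32, a difference of -0.49, and siPSF was its lowest array. The other 7 genes lay between -0.26 and 0.04. They include FASN, the synthase of palmitate (-0.07), SCD, the desaturase that makes monounsaturated fatty acids (0.04), ACLY, which frees acetyl-CoA from citrate (-0.19), and ACSS2, which makes it from acetate (-0.13). The desaturases of polyunsaturated fatty acids read -0.03 for FADS1 and -0.26 for FADS2, and their elongase ELOVL5 read -0.22.

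ELOVL6, ME1 and ACACA are also the 3 members with a genomic span over 100 kb, at 153, 221 and 322 kb. Over all 1722 genes kept with such a span, the median difference between siPSF and siControl was -0.10 and 64.6% were lower. Over the 6748 genes of up to 50 kb, 50.1% were lower. Without these 3 genes the median of the fatty acid branch was -0.13 in place of -0.21, a setting added after their values were seen. The sterol enzymes are shorter, from 6.91 kb for EBP to 40.3 kb for LSS, with a median of 20.6 kb. The part of gene length in these differences was not tested.

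**Figure D2:**
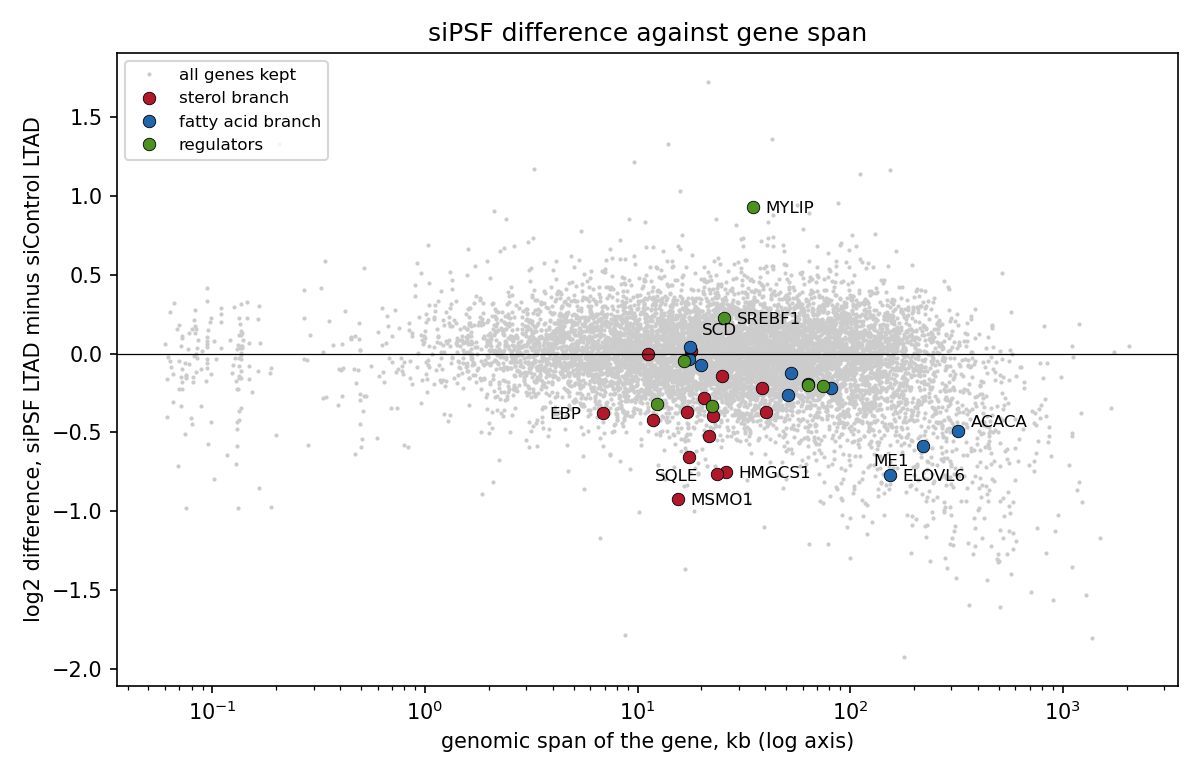
Log2 difference of siPSF minus siControl LTAD (vertical) against the genomic span of the gene in kb (horizontal, log axis), with all genes kept in grey and the measured members in colour by branch. ELOVL6, ME1 and ACACA sit at 153 to 322 kb among long genes that mostly read lower, and sterol enzymes such as MSMO1 (-0.92), SQLE (-0.77) and HMGCS1 (-0.75) sit below 0 at spans under 50 kb.

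Among regulators, MYLIP, a ubiquitin ligase that sends the LDL receptor to degradation, read 9.17 with siPSF, 8.24 with siControl, 9.33 in untransfected LTAD and 9.11 in LNCaP. The siControl array stood apart as the low one, and siPSF minus untransfected LTAD was -0.16, or -1.09 on the deposited scale. INSIG2 read 7.26 with siPSF, 7.59 with siControl, 8.65 in untransfected LTAD and 8.09 in LNCaP, and was lowest with siPSF. INSIG1, itself a target of the SREBP factors, differed by -0.32 between siPSF and siControl. SREBF1 was higher by 0.23, SREBF2 lower with -0.21, and SCAP lower with -0.20. STARD4, a sterol carrier, read 6.86 with siPSF and 6.91 with siControl, both under the filter value. Without MYLIP, the median of the regulators was -0.20, as with it.

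**Figure D3:**
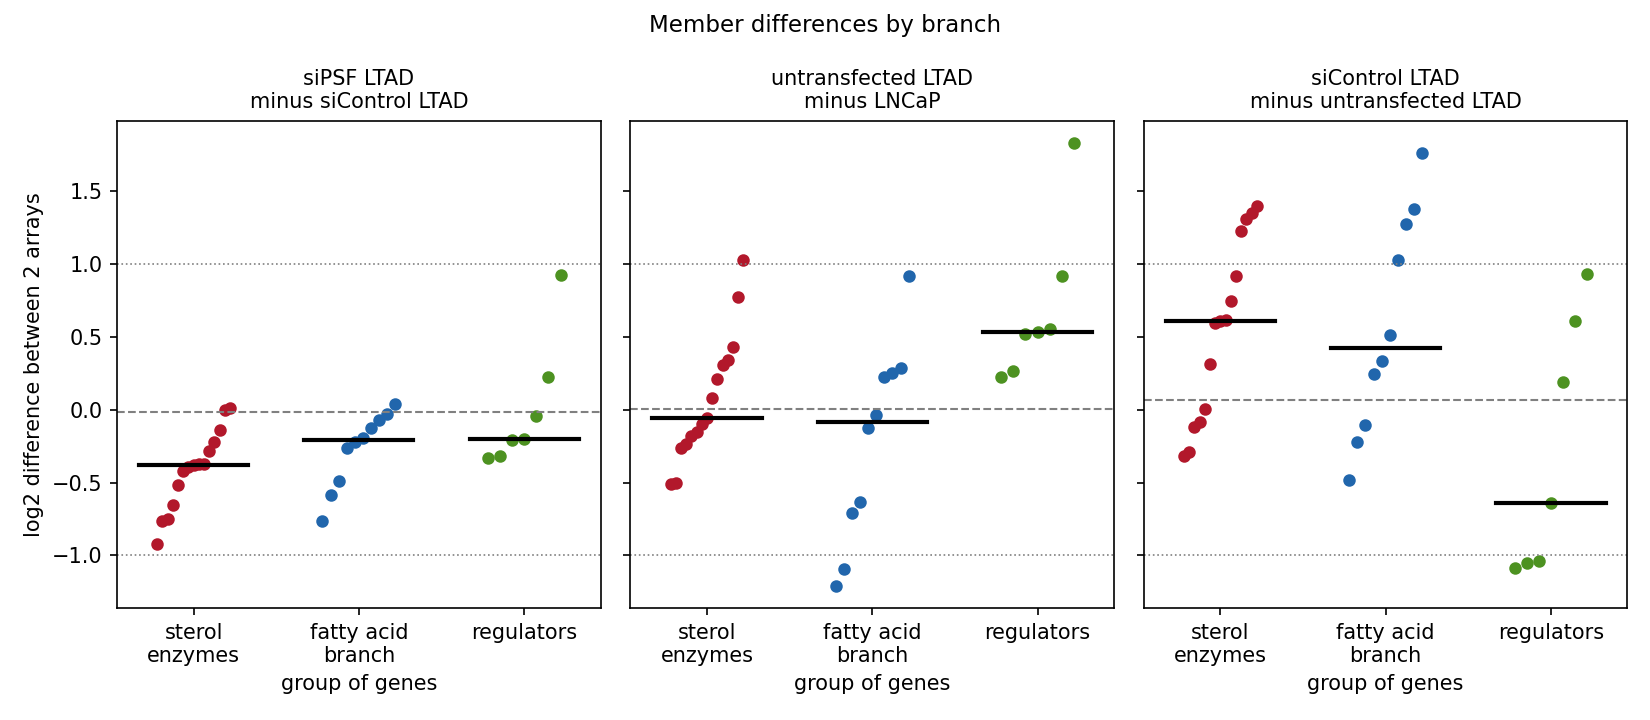
Log2 difference of each measured gene (points) in the 15 sterol enzymes, 10 fatty acid genes and 7 regulators, for siPSF minus siControl LTAD, untransfected LTAD minus LNCaP and siControl minus untransfected LTAD. Black bars are medians, the dashed line is the median of all genes kept and dotted lines mark 2-fold; the sterol median is -0.38, -0.06 and 0.61 from left to right.

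Untransfected LTAD offers a second control for the siPSF array. Against it the sterol and fatty acid medians were positive after quantile normalization and with centred values, and negative on the deposited scale. After quantile normalization the sterol median was 0.23, with 6 of 15 enzymes lower, and on the deposited scale it was -0.64, with all 15 lower. The fatty acid median was 0.20 with 4 of 10 lower, and -0.53 with 8 of 10 lower on the deposited scale. Regulators had lower medians on both scales, -0.16 with 5 of 7 lower and -1.09 with all 7 lower. With centred values the sterol median was 0.31, with 6 of 15 lower, and the fatty acid median 0.41, with 4 of 10 lower. The centred regulator median was -0.15, with 4 of 7 lower. Over all genes kept 46% were lower and 53.9% higher after quantile normalization, while on the deposited scale 94.2% were lower and the median was -0.90. With centred values 46.3% of them were lower and the median was 0.04. These differences share the siPSF array with the ones above.

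After quantile normalization siPSF lay between the other LTAD arrays for 10 sterol enzymes, as for 43.8% of all genes kept. For 5 of 15 (IDI1, FDPS, LSS, MSMO1 and SC5D) it lay below both, against 27.7% of all genes kept. For none it lay above both, against 28.5%. On the deposited scale 14 of 15 lay below both, against 52.6% of all genes kept. MSMO1 was the only sterol enzyme at least 2-fold lower with siPSF than in untransfected LTAD after quantile normalization, with -1.04, and with centred values none was. On the deposited scale 6 of 15 were (PMVK, IDI1, FDPS, LSS, MSMO1 and SC5D), against 42.1% of all genes kept, and MSMO1 differed by -1.89. IDI1 differed by -0.74 and SC5D by -0.60, and by -1.64 and -1.41 on the deposited scale. ACAT2 and EBP were above untransfected LTAD by 0.94 and 0.85 after quantile normalization and turned to -0.09 and -0.07 on the deposited scale.

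In the fatty acid branch, siPSF lay below both other LTAD arrays for 4 of 10 genes after quantile normalization (ACACA, FASN, ELOVL5 and ACSS2), against 27.7% of all genes kept. On the deposited scale it did so for 8 of 10, these 4 among them, against 52.6%. SCD read 12.01 with siPSF, 11.97 with siControl, 10.94 in untransfected LTAD and 10.03 in LNCaP, so that both transfected arrays were the high ones. FADS1 read 11.12, 11.16, 9.88 and 10.59 in the same order. Against untransfected LTAD these 2 genes were at least 2-fold higher with siPSF, by 1.07 and 1.24, where 5.4% of all genes kept were, and on the deposited scale they were still higher by 0.34 and 0.41. INSIG2 was, like MSMO1, at least 2-fold lower (-1.39), where 5.2% of all genes kept were. Its siPSF level, 7.26, lay just above the filter value. STARD4 also read lower, 6.86 with siPSF against 7.94 in untransfected LTAD, but the siPSF level was under the filter value, so its size is not given.

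**Figure D4:**
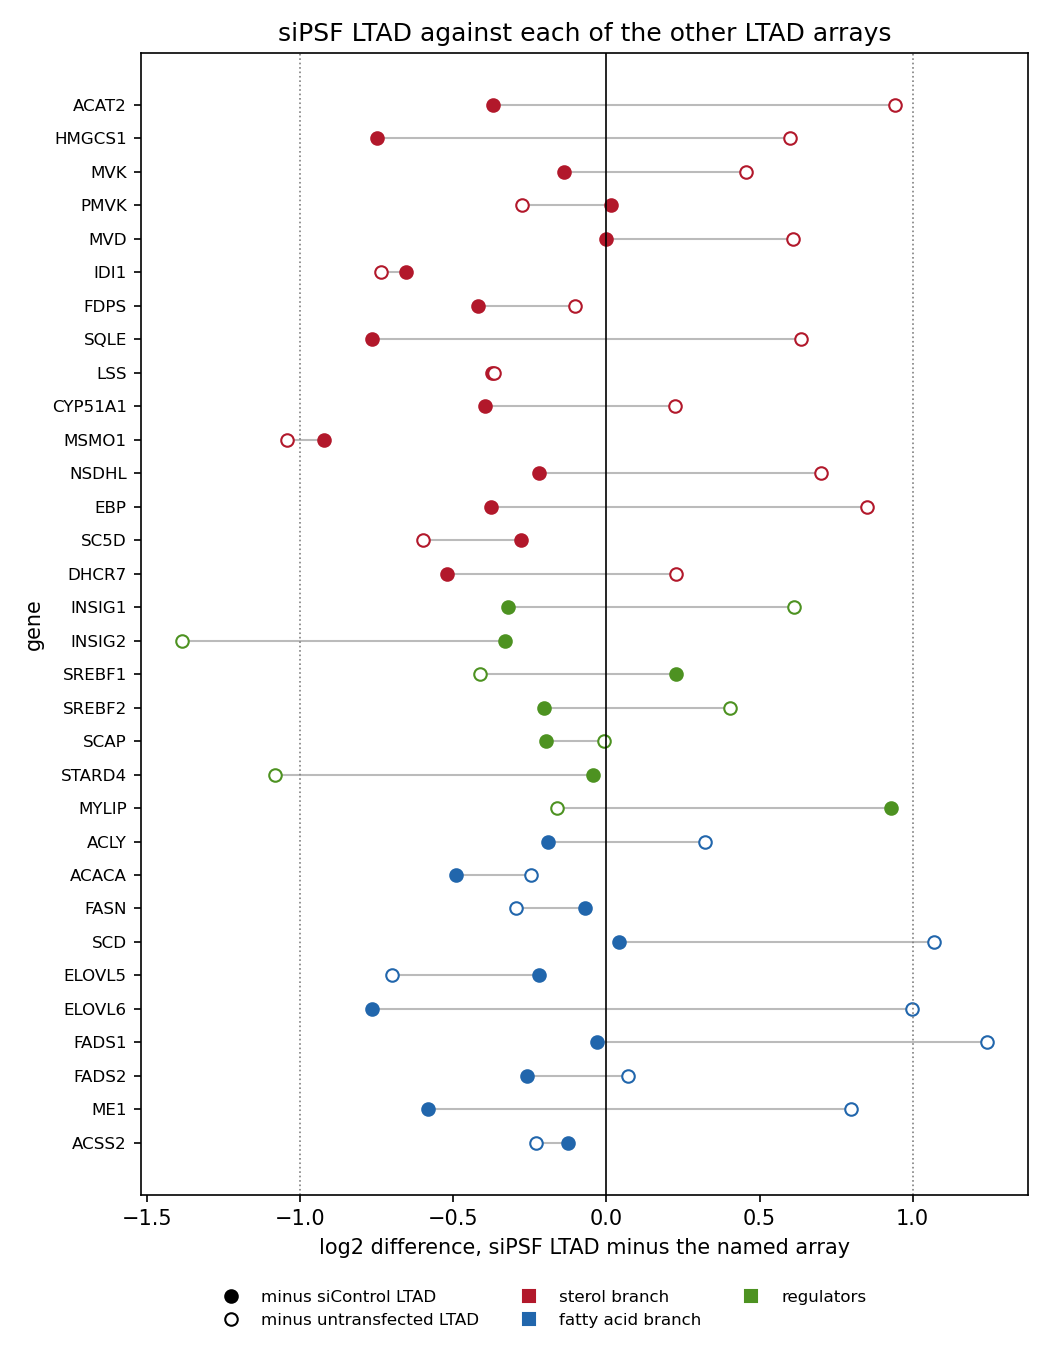
Log2 difference of the siPSF LTAD array minus siControl LTAD (filled points) and minus untransfected LTAD (open points) for each measured gene, coloured by branch, with dotted lines at 2-fold. MSMO1, IDI1, SC5D and LSS lie left of 0 against both arrays, and ACAT2, HMGCS1, SQLE and EBP lie on opposite sides; on the deposited scale all 15 sterol enzymes are lower than in untransfected LTAD.

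Untransfected LTAD was next set against LNCaP, its parent line. All 7 regulators read higher in LTAD, with a median of 0.54, on the deposited scale as well (0.69). The sterol enzymes split, with 7 higher and 8 lower and a median of -0.06, and 11 higher on the deposited scale (0.10). So did the fatty acid genes, with 4 higher and 6 lower and a median of -0.08 (0.0453 on the deposited scale). Over all genes kept the median was 0.00, with 50.5% higher and 49.5% lower, while on the deposited scale it was 0.18, with 70.7% higher. The lines also differed in serum content and in time without hormone, so effects of line and culture cannot be told apart.

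STARD4 read 7.94 in LTAD and 6.11 in LNCaP. The LNCaP level, like both transfected ones, was under the filter value, so no fold is given. SREBF1, the precursor gene of the factor that favours fatty acid genes, read 9.80 in LTAD and 8.88 in LNCaP, 1.89-fold higher. SREBF2 was higher by 0.54, INSIG2 by 0.55, INSIG1 by 0.52, SCAP by 0.27 and MYLIP by 0.22. With the siControl array taken for LTAD, 5 of 7 regulators were higher than in LNCaP after quantile normalization, with a median of 0.46, but 5 of 7 were lower on the deposited scale, with -0.27. Over all genes kept 43.6% were lower and 56.4% higher after quantile normalization, and 94.1% lower on the deposited scale. INSIG2 and MYLIP were lower on both scales. Both differences use the same LNCaP array.

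LSS read 8.77 in LTAD and 7.74 in LNCaP, 2.04-fold higher, and 8.40 with siPSF and 8.78 with siControl. LNCaP was thus its low array. MSMO1 was higher in LTAD by 0.78, IDI1 by 0.43, SC5D by 0.34 and MVK by 0.31. EBP and ACAT2 had the lowest differences of the branch, -0.51 and -0.50, followed by NSDHL (-0.26) and HMGCS1 (-0.24). The other 6 enzymes lay between -0.18 and 0.21. The siControl array read higher than LNCaP after quantile normalization, with a sterol median of 0.69 and 14 of 15 above 0, PMVK being the exception. On the deposited scale 7 of 15 were lower (median 0.0026), where 94.1% of all genes kept were lower with a median of -0.69. With centred values 14 of 15 were higher, with a median of 0.75, against 55.2% of all genes kept, with a median of 0.06. At 2-fold, 6 members were higher in siControl than in LNCaP (HMGCS1, SQLE, LSS, INSIG1, SREBF2 and SCD), against 2.68% of all genes kept, and none lower, against 2.95%. SCD alone was higher by that much on the deposited scale, against 0.613% of all genes kept, and 5 members were lower (PMVK, ACACA, ELOVL5, INSIG2 and MYLIP), against 22.9%. With centred values 6 were higher, with DHCR7 in place of LSS, against 2.73% of all genes kept, and none lower, against 3.34%.

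In the fatty acid branch SCD was 1.89-fold higher in LTAD than in LNCaP, and ACSS2, FADS2 and FASN were higher by 0.29, 0.25 and 0.22. ME1 read 8.77 in LTAD and 9.98 in LNCaP, 2.32-fold lower, and ELOVL6 read 7.32 and 8.41, 2.14-fold lower. The ELOVL6 level in LTAD lay just above the filter value. FADS1 differed by -0.71, ACACA by -0.64, ELOVL5 by -0.13 and ACLY by -0.04. Without the 3 genes over 100 kb the branch median was 0.22, while genes of that span had a median of 0.07 over all genes kept. In siControl LTAD, ME1 and ELOVL6 read 0.17 and 0.67 above LNCaP after quantile normalization, and differed by -0.50 and -0.09 on the deposited scale. At 2-fold, 2 of 32 members were higher in LTAD (LSS and STARD4, whose LNCaP level was under the filter value), against 2.2% of all genes kept, and 2 were lower (ME1 and ELOVL6), against 3.43%. With deposited values 4 members were at least 2-fold higher, with SCD and SREBF1 added, against 3.05% of all genes kept, and none lower, against 2.37%. At 1.5-fold 5 members were higher, against 6.63%, and 4 lower (ME1, ELOVL6, FADS1 and ACACA), against 9.05%.

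The last comparison set siControl against untransfected LTAD, that is 1 line with and without transfection. Sterol enzymes and fatty acid genes read higher in siControl after quantile normalization, with medians of 0.61 and 0.42, but lower on the deposited scale, with -0.39 and -0.28, where all genes kept shifted by a median of -0.87 and 93.0% were lower. The regulator median was lower in siControl on both scales (-0.64 and -1.53), but the list was split after quantile normalization, with 4 of 7 lower. On the deposited scale 6 of 7 were lower. Without MYLIP the median was -0.22 after quantile normalization. Over all genes kept the median was 0.06 after quantile normalization, with 55.3% higher and 44.7% lower.

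At 2-fold, 8 of 32 members were higher in siControl (ACAT2, HMGCS1, SQLE, EBP, SCD, ELOVL6, FADS1 and ME1), against 6.34% of all genes kept, and 3 were lower (INSIG2, STARD4, which was under the filter value in siControl, and MYLIP), against 4.36%. On the deposited scale none were higher, against 0.682% of all genes kept, and 9 lower, against 39.6%. At 1.5-fold 15 were higher after quantile normalization, against 16.7%, and 4 lower, against 11.7%. ELOVL6 read 9.08 in siControl and 7.32 in untransfected LTAD, 3.39-fold higher on the quantile scale. Its level in untransfected LTAD lay just above the filter value. SQLE was 2.64-fold higher, ME1 2.60-fold, HMGCS1 2.55-fold, ACAT2 2.48-fold, FADS1 2.42-fold, EBP 2.34-fold and SCD 2.04-fold. All 8 were above 0 on the deposited scale too, between 0.28 for SCD and 0.76 for ELOVL6. INSIG1, a member of the SREBP response, was higher by 0.93 (0.02 on the deposited scale) and SREBF2 by 0.61 (-0.27 on the deposited scale), while SREBF1 differed by -0.64 and SCAP by 0.19, or -0.70 on the deposited scale.

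PMVK, SC5D, MSMO1 and IDI1 went against the branch, with differences of -0.29, -0.32, -0.12 and -0.08, and LSS read 8.78 and 8.77. The siControl array was the highest of the 4 for 11 of 15 sterol enzymes, 5 of 10 fatty acid genes and 3 of 7 regulators after quantile normalization, 19 of 32 in all, against 25.6% of all genes kept. On the deposited scale it was the highest for 5 of 32, against 2.29%. After quantile normalization untransfected LTAD was the highest for 9 members (29.1% of all genes kept), LNCaP for 3 (20.7%) and siPSF for 1, SCD (24.6%). On the deposited scale untransfected LTAD was the highest for 20 of 32 (68.8%), LNCaP for 6 (27.3%) and siPSF for 1 (1.55%). The lowest array on the quantile scale was LNCaP for 12 members (26.4% of all genes kept), untransfected LTAD for 10 (33.6%), siPSF for 8 (22.7%) and siControl for 2 (17.3%). Other genes also set these arrays apart. KLK3, an androgen-driven luminal marker, read 7.47 in siControl and 11.06 in untransfected LTAD. After quantile normalization 5 of the 6 luminal markers were lower in siControl, against 44.7% of all genes kept. On the deposited scale 93.0% of all genes kept were lower in siControl. LUM, a stromal marker, read 3.21 in siControl against 8.80 in untransfected LTAD, and 2.97 with siPSF and 3.78 in LNCaP. Among the 5 stromal markers 1 reached the filter value in siControl and 2 in untransfected LTAD. The part of these markers in the lipid gene differences was not tested.

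Genes next to these pathways were read from lists chosen with earlier results known. Their shares over all genes kept are those given above. With siPSF 53.1% were lower than with siControl after quantile normalization, and 55.8% on the deposited scale. In siControl 93.0% were lower than in untransfected LTAD on the deposited scale. Of 8 kept genes for SREBP cleavage and stability, 5 were lower with siPSF than with siControl, with a median of -0.07. MBTPS1, the Golgi protease of the first cleavage, was highest at 0.33, and ERLIN2, which takes part in INSIG and reductase turnover, was lowest at -0.32. In LTAD against LNCaP the list ran from -0.60 for ERLIN2 to 0.28 for SEC23A, a coat protein of vesicles leaving the endoplasmic reticulum. In siControl against untransfected LTAD it ran from -0.42 for RNF139 to 0.56 for ERLIN2 after quantile normalization, and all 8 were lower on the deposited scale.

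Of 12 kept genes for sterol transport, esterification and efflux, 9 were higher with siPSF than with siControl, also on the deposited scale, with a median of 0.06, against 46.9% of all genes kept that were higher. The list ran from -0.23 for TMEM97 to 0.26 for GRAMD1A, a carrier of sterol from the plasma membrane. In LTAD against LNCaP the list ran from -0.78 for SOAT1, which esterifies cholesterol, to 0.30 for OSBPL2. In siControl against untransfected LTAD, TMEM97 was at least 2-fold higher (1.01) and OSBPL9 was lowest at -0.88 after quantile normalization, and 11 of 12 were lower on the deposited scale.

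Other genes of fatty acid synthesis and elongation had a median of -0.21 with siPSF against siControl, and 9 of 11 kept were lower (10 on the deposited scale). ELOVL7, an elongase of saturated very long chains, was lowest at -0.44 and OXSM, the mitochondrial ketoacyl synthase, highest at 0.05. ELOVL7 also read 7.14 in untransfected LTAD, under the filter value, and its reading in LNCaP was higher, and ELOVL1 was the highest gene of that comparison at 0.49. In siControl against untransfected LTAD, HSD17B12 was lowest at -0.86 and TECR highest at 0.86 after quantile normalization, and 10 of 11 were lower on the deposited scale; both genes belong to the elongation cycle. In the isoprenoid branch, which uses farnesyl diphosphate for other products, 7 of 10 kept genes were lower with siPSF, with a median of -0.07. PDSS2, which builds the side chain of ubiquinone, read 6.40 with siPSF, under the filter value, against 7.52 with siControl, and spans 307 kb. FNTA, a farnesyltransferase subunit, was highest at 0.15. PDSS1, the partner subunit of PDSS2, was lower in LTAD than in LNCaP with -0.60 and higher in siControl than in untransfected LTAD by 1.26 after quantile normalization, where 9 of 10 of the list were lower on the deposited scale, while RABGGTA (0.32) and DHDDS (-0.80) marked the other ends of these comparisons.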

How the data were processed

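The authors deposited log2 levels for 33297 probe sets. The submitters' processing notes name RMA and Affymetrix Expression Console, with versions, settings and batches not given in the sources used here. Whether the 4 arrays were normalized together is not stated. The 4 columns were quantile-normalized over all probe sets. Of the probe sets, 19460 had 1 gene symbol in the platform annotation, 1754 had several and named no gene, and 12083 were unnamed here. Symbols were updated through Entrez IDs to RefSeq GRCh38.p14, which matched 19429. The probe set of highest mean over the 4 arrays stood for each gene. Genes were kept if 1 or more arrays reached the middle of all gene values. No detection call was available to this work, so a level under that value is not shown to be above background.

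Comparisons are log2 differences between single arrays, with no test, and 2-fold is a difference of 1. Members were also set against the other LTAD array on both scales and with centred values. Alternatives were the deposited scale, centring, the mean of probe sets, other filters, and 1.5-fold. The genes named are every member, SFPQ, and the highest, lowest and 2-fold genes of each further list. The rule also covered all markers, which are given by list, with only KLK3, KRT14, COL1A1 and LUM named, chosen after their values were seen. Members, lists and branches were chosen with earlier results of these data known. Gene span is the length in kb in the same RefSeq table, known for 99.9% of genes kept. On simulated data the normalization and count were run for the siPSF and siControl pair over 33297 probe sets. All 100 planted at a log2 change of 1.5 and all 100 at 2 were recovered, and 0 of 33097 unchanged ones were called. The simulated arrays shared a single profile with little noise, and the planted changes lay above the cutoff. The run therefore checks the code and gives no error rate for the real arrays. Computations used Python 3.11.15, numpy 2.4.6 and pandas 2.3.3.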

Additional observations from a re-analysis of the deposited data

How the results depend on the processing

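A median counts as moved here if it changed by 0.1 or more. For siPSF against siControl, medians of the 3 branches moved by less than that with deposited values, centred values, the mean of probe sets, the filter and without the long genes or MYLIP. With untransfected LTAD as control the sterol median was 0.23 and the fatty acid median 0.20, and on the deposited scale -0.64 and -0.53, with -1.09 for regulators. Centred values gave 0.31, 0.41 and -0.15 for the same 3 branches. At 1.5-fold in place of 2-fold, 1 member was higher and 5 lower. For LTAD against LNCaP, deposited values gave medians of 0.10 (sterol), 0.0453 (fatty acid) and 0.69 (regulators). With siControl LTAD in place of LTAD the sterol and fatty acid medians were 0.69 and 0.33, and ELOVL6 and ME1 turned to 0.67 and 0.17. With that array on the deposited scale the fatty acid and regulator medians were -0.32 and -0.27. These 2 deposited settings, the centred ones for the same pairs of arrays, and those without long genes or MYLIP, were chosen after seeing the data. Without the genes over 100 kb the fatty acid median was 0.22. The 2 higher and 2 lower members became 4 and 0 with deposited values and 5 and 4 at 1.5-fold, and 0 higher with the filter at the 75th percentile. For siControl against untransfected LTAD, deposited values turned the sterol and fatty acid medians to -0.39 and -0.28 and gave -1.53 for regulators, and centred values gave 0.49 and 0.60. Without MYLIP the regulators were at -0.22. The 8 higher members became 0 with deposited values and 15 at 1.5-fold, and the 3 lower became 9 with deposited values and 1 with the filter at the 75th percentile. By construction, quantile normalization and centring take out a shift common to most genes. No paired analysis was possible because each group holds 1 array and the labels carry no replicate numbers. Single arrays and the lack of detection calls limit every value.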

Other observations

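Fatty acid oxidation genes, the opposite route to synthesis, were read as well. Of 17 kept, 13 were lower with siPSF than with siControl, with a median of -0.13, against 53.1% of all genes kept. HADH, a mitochondrial dehydrogenase of the oxidation cycle, was lowest and read 8.34 with siPSF, 9.11 with siControl, 9.31 in untransfected LTAD and 9.43 in LNCaP. ACAA2, the mitochondrial thiolase, was highest and read 8.34, 7.66, 6.63 and 7.37 in the same order, with untransfected LTAD under the filter value. In LTAD against LNCaP the list ran from -0.74 for ACAA2 to 0.57 for CPT2, which takes fatty acids into mitochondria with CPT1A. In siControl against untransfected LTAD, ECI1 was lowest at -0.55 after quantile normalization and ACAA2 highest, against a level under the filter value, while on the deposited scale all 17 were lower, against 93.0% of all genes kept.

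In glycerolipid synthesis and storage, 12 of 15 kept genes were higher in LTAD than in LNCaP, with a median of 0.16, against 50.5% of all genes kept. On the deposited scale 13 were, against 70.7%. LPIN1, a phosphatidate phosphatase, was highest at 0.69 and read 10.23 with siPSF, 10.30 with siControl, 9.30 in untransfected LTAD and 8.61 in LNCaP. PTDSS1, a phosphatidylserine synthase, was lowest at -0.71. With siPSF against siControl, 10 of 15 were lower, against 53.1% of all genes kept, with a median of -0.07, from -0.50 for ETNK1, ethanolamine kinase, to 0.24 for CHPT1, a phosphotransferase of phosphatidylcholine synthesis. In siControl against untransfected LTAD, LPIN1 was highest at 0.99 and CHPT1 lowest at -0.73 after quantile normalization, while 14 of 15 were lower on the deposited scale, against 93.0% of all genes kept.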
